A study of Mus musculus with 30 samples.

Results

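The 6 hearts described here came from C57Bl/6 mice that were injected with saline (PBS) and then had either sham surgery (PBS_sham, 3 libraries) or transverse aortic constriction (PBS_TAC, 3 libraries). They were chosen by their column names in the deposited count table and make up 6 of the 30 hearts of the series. Transverse aortic constriction (TAC) places a microclip across the aortic arch so that the left ventricle pumps against a higher pressure. Clips of 0.016 or 0.018 inch were used, without a record here of which mouse had which. Hearts were taken 8 weeks after surgery and flash frozen, and poly(A) RNA was sequenced. These are the saline controls of a cohort in which other C57Bl/6 mice received an AAV9 vector that carries Cpt1a (AAV_sham and AAV_TAC, 4 libraries each). A second cohort held floxed controls (FF_sham and FF_TAC, 4 each) and cardiac Cpt1a knockouts. Age, sex and the time of day at collection are not given in the sources used here, and neither is whether a library holds 1 mouse or several, so p-values measure only the spread between these libraries.

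A heart that works against a raised pressure thickens its wall. Its muscle cells enlarge and switch on fetal and stretch-response genes such as skeletal alpha-actin, beta-myosin heavy chain and the natriuretic peptides, while fibroblasts lay down matrix. The heart also runs on a circadian clock, in which Arntl (BMAL1) pairs with Clock or Npas2 to activate E-box genes, including the Per, Cry and Bhlhe40/41 repressors that then shut the pair off. The mitochondrial enzyme Cpt1a, the subject of the study, lets long-chain fatty acids enter mitochondria, where they are oxidised.

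Assigned reads ran from 16665281 to 19705488 per library. Levels are given as CPM, counts relative to a library total that was scaled by TMM, a normalisation that evens out differences in composition between libraries. Ventricular markers (Myl2, Myl3, Mb, Irx4 and Hey2) were detected in all 6 hearts. The library PBS_sham 3 stood apart: 2873 genes lay beyond 2 times the range of the other 5 libraries, against 41 to 260 genes for each of the others. Transcripts of smooth muscle were high in it, with Myh11 at 698 CPM against 23.6 to 74.5 CPM elsewhere. Summed endothelial markers were at 2720 CPM against 1239 to 1491 CPM. Nuclear genes of heart muscle mitochondria were low, with Acadvl at 66.97 CPM against 477 to 588 CPM. Transcripts of the mitochondrial genome were not, at 21.0% of counts against 19.3% to 22.7% in the other 5. Of 23 genes of glucose use, 22 were lowest in it. Counts of calls are therefore given with all 6 hearts and without PBS_sham 3, and log2 fold changes of single genes mostly so. Folds are those of the fitted model. Atrial muscle was also uneven: Myl7, the atrial myosin light chain, was at 210.2, 1006 and 299 CPM in PBS_sham 1 to 3 and 0.0585, 642 and 0.3702 CPM in PBS_TAC 1 to 3. Atrial RNA was thus nearly absent in PBS_TAC 1 and PBS_TAC 3 and present in all sham hearts. Summed adipocyte markers ran from 19.9 to 432 CPM in the sham hearts and from 0.234 to 55.8 CPM after TAC, and summed mesothelium markers from 12.5 to 327 CPM and from 7.37 to 38.3 CPM. In whole hearts, fewer cells of a type and less RNA per cell cannot be told apart.

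**Figure D1:**
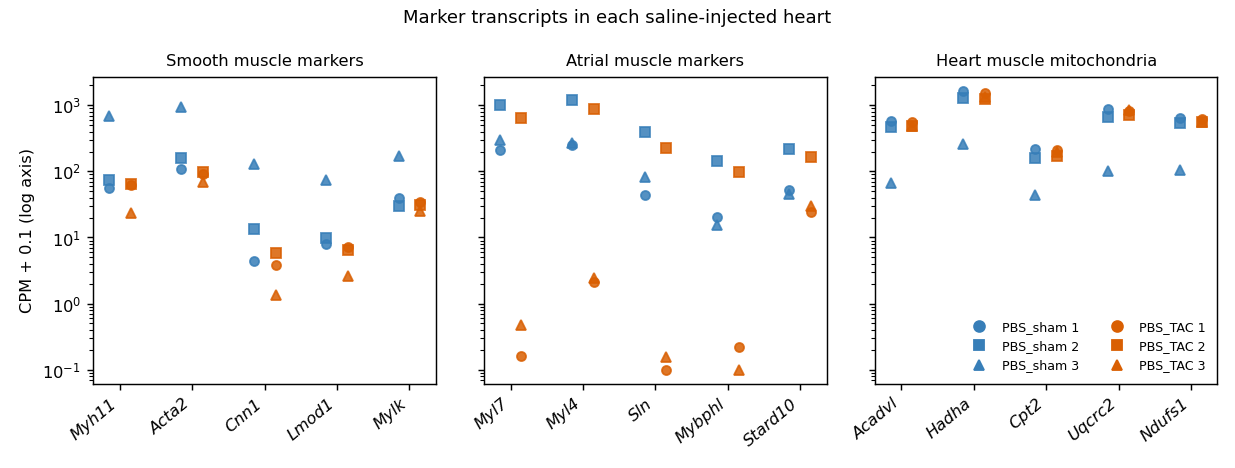
CPM plus 0.1 on a log axis of 5 smooth muscle markers, 5 atrial muscle markers and 5 nuclear genes of mitochondrial enzymes in each heart (blue, PBS_sham; orange, PBS_TAC; circle, square and triangle, libraries 1, 2 and 3). PBS_sham 3 is high in the first panel and low in the third, and PBS_TAC 1 and PBS_TAC 3 lie far below the other hearts for Myl7, Myl4, Sln and Mybphl.

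After 8 weeks of pressure overload Ccn5 and Ackr4 rose, and Spon2, Arntl and Nrgn fell, across the 6 hearts. These were 5 of 15745 genes tested, or 0.0318% (2 higher, 0.0127%; 3 lower, 0.0191%), in edgeR's quasi-likelihood test at a Benjamini-Hochberg adjusted p under 0.05, fitted with the 8 AAV hearts to estimate the spread. Without PBS_sham 3, 81 of 15901 genes were called, 0.509% of those tested (37 higher, 0.233%; 44 lower, 0.277%), and these held the same 5. At an unadjusted p under 0.05 2908 genes (18.5%) passed with all hearts, 6.5% higher and 12.0% lower. Without PBS_sham 3 it was 2285 (14.4%), 7.48% higher and 6.89% lower. The median log2 fold change over all genes was -0.02 and 0.00.

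Ccn5 (chr2:163820861-163833146, plus strand; GRCm38, GENCODE M21, as all coordinates here) encodes a matricellular protein of the CCN family made by fibroblasts and smooth muscle. It was at 7.56, 8.02 and 10.1 CPM in PBS_sham 1 to 3 and 39.99, 25.7 and 35.9 CPM in PBS_TAC 1 to 3. Every TAC heart lay above every sham heart, and the mean rose from 8.56 ± 1.35 to 33.9 ± 7.37 CPM (SD, n = 3 each), a fitted fold of 3.95 (log2 fold change 1.98, SE 0.26, adjusted p = 0.0205, and 2.12 without PBS_sham 3). Ackr4 (chr9:104084157-104126933, minus strand), an atypical receptor that binds and removes the chemokines CCL19, CCL21 and CCL25, was at 3.34, 2.21 and 2.87 CPM in PBS_sham 1 to 3 and 8.65, 7.89 and 12.8 CPM in PBS_TAC 1 to 3. The groups did not overlap and the fitted level was 3.48-fold higher after TAC (log2 fold change 1.80, SE 0.26, adjusted p = 0.023, and 1.82 without PBS_sham 3). Its exons overlap those of Acad11 on the other strand, and the strand setting of the counting is not given in the sources used here, so its count is uncertain.

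Spon2 (chr5:33198184-33218455, minus strand), a secreted matrix protein of the F-spondin family, gave the largest fall of the 5. Its level was 6.68, 8.69 and 6.06 CPM in PBS_sham 1 to 3 and 1.46, 1.8999 and 1.27 CPM in PBS_TAC 1 to 3, so that the groups lay apart and the fitted sham level was 4.61 times the TAC level (log2 fold change -2.21, SE 0.30, adjusted p = 0.0205, and -2.31 without PBS_sham 3). Arntl (chr7:113207465-113314126, plus strand; exons overlap Gm45355 on the other strand) was at 8.92, 12.1 and 7.33 CPM in PBS_sham 1 to 3 and 3.45, 2.42 and 2.17 CPM in PBS_TAC 1 to 3. All 3 TAC hearts were below all sham hearts, by a fitted ratio of 3.52 (log2 fold change -1.82, SE 0.25, adjusted p = 0.0205, and -1.98 without PBS_sham 3). Nrgn (chr9:37544492-37552904, minus strand), a calmodulin-binding protein best known from neurons, was at 11.8, 12.9 and 19.8 CPM in PBS_sham 1 to 3 and 5.85, 5.18 and 4.87 CPM in PBS_TAC 1 to 3. PBS_sham 3 held the highest value, yet the fall did not rest on it: the log2 fold change was -1.49 (SE 0.20, adjusted p = 0.0205) with it and -1.22 (SE 0.16, adjusted p = 0.00563) without it. None of the 5 was called in a fit of the PBS libraries alone, in which 0 genes passed (934 at an unadjusted p under 0.05), or with a term for atrial RNA. With all 8 groups in the fit only Ackr4 of the 5 was called, and the others had an adjusted p of 0.0697 (Ccn5), 0.0846 (Spon2), 0.0966 (Arntl) and 0.0975 (Nrgn). With a term for smooth muscle RNA, Ackr4 (adjusted p = 0.088) and Nrgn (adjusted p = 0.0596) were not called. Leaving out PBS_sham 2, PBS_TAC 1 or PBS_TAC 3 left 0 genes called, and leaving out PBS_TAC 2 left 1, Ccn5; without PBS_sham 1, 1796 genes were called. Beside PBS_sham 3, leaving out PBS_sham 2 also left 0 genes, PBS_TAC 1 25 genes, PBS_TAC 2 50, PBS_TAC 3 33 and PBS_sham 1 385, and the PBS libraries alone gave 0 (1534 at an unadjusted p under 0.05).

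**Figure D2:**
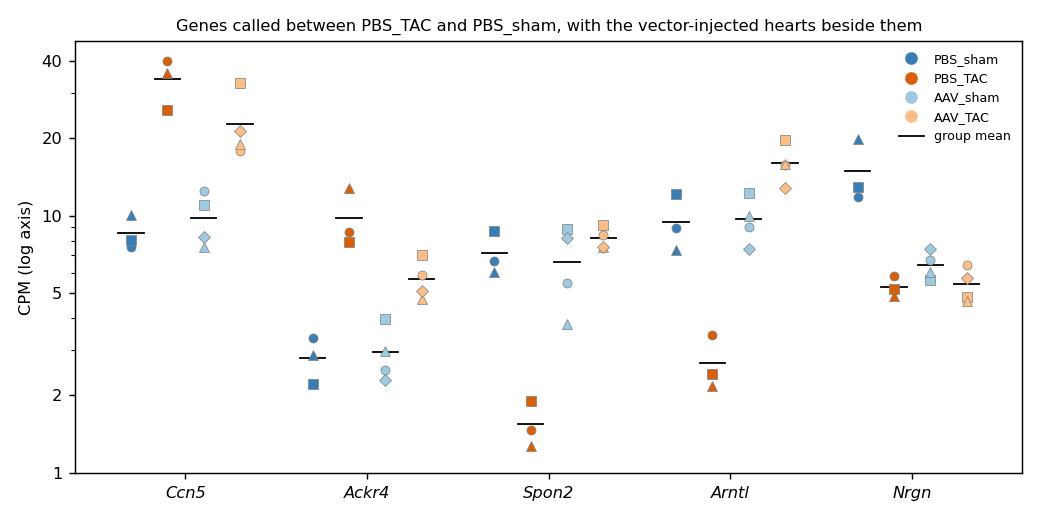
CPM on a log axis of the 5 called genes in each heart, with the group mean as a bar (PBS_sham and PBS_TAC, 3 hearts each; AAV_sham and AAV_TAC, 4 each). Ccn5 and Ackr4 lie higher in PBS_TAC than in PBS_sham, Spon2, Arntl and Nrgn lower, and Arntl in AAV_TAC lies at 12.8 to 19.7 CPM, above every AAV_sham heart.

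Hypertrophy genes such as Acta1, Myh7 and Ankrd1 stood higher in every TAC heart than in any sham heart, but none passed the test. Of 12 genes of hypertrophy and stretch, all tested, 0 were called; 6 lay without overlap higher after TAC and 0 lower, where 8.11% of all genes lay higher without overlap and 6.57% lower. Their median log2 fold change was 0.89, and 0.63 without PBS_sham 3. Acta1, the skeletal alpha-actin that the adult heart re-expresses under load, was at 299, 162 and 106 CPM in PBS_sham 1 to 3 and 3359, 2359 and 5049 CPM in PBS_TAC 1 to 3. Every TAC heart lay far above every sham heart, and the fitted level was 18.98-fold higher. The log2 fold change was 4.25 (SE 0.95, adjusted p = 0.111), and 3.96 without PBS_sham 3. That SE comes from the fit with the AAV hearts. In the edgeR fit of the PBS libraries alone it was 0.55, with an adjusted p of 0.268. Myh7, the slow beta-myosin heavy chain, was at 630.4, 521 and 699 CPM in PBS_sham 1 to 3 and 2998, 1656 and 1461 CPM in PBS_TAC 1 to 3, 3.304-fold higher in the fit (log2 fold change 1.72, SE 0.43, adjusted p = 0.14, and 1.82 without PBS_sham 3); its exons overlap the antisense transcript Mhrt. Ankrd1, a stretch-responsive titin-binding protein, was at 1568, 1455 and 551 CPM in PBS_sham 1 to 3 and 4979.8, 3471 and 5405 CPM in PBS_TAC 1 to 3. Ankrd1 gave a log2 fold change of 1.96, SE 0.47, adjusted p = 0.134, and 1.61 without PBS_sham 3. Xirp2, an actin-binding protein of the intercalated disc, was at 513, 362 and 192 CPM in PBS_sham 1 to 3 and 1389, 979 and 1379 CPM in PBS_TAC 1 to 3. Xirp2 gave a log2 fold change of 1.81, SE 0.42, adjusted p = 0.117, and 1.51 without PBS_sham 3. For these genes the sham and TAC ranges were apart, and the lowest value of Acta1, Ankrd1 and Xirp2 was in PBS_sham 3. Uck2, which encodes uridine-cytidine kinase 2, and Enah, an actin regulator, also lay apart at log2 fold changes of 1.03 and 0.76 (0.72 and 0.64 without PBS_sham 3).

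The natriuretic peptides did not separate the groups. Nppa, which atrial muscle makes in large amounts, was at 288, 2591 and 131 CPM in PBS_sham 1 to 3 and 310.5, 1763 and 862 CPM in PBS_TAC 1 to 3. Its highest values were in PBS_sham 2 and PBS_TAC 2, the hearts with the most Myl7, and its log2 fold change was -0.04 (SE 1.32, adjusted p = 0.989). Nppb was at 277, 173 and 17.1 CPM in PBS_sham 1 to 3 and 324, 194 and 514 CPM in PBS_TAC 1 to 3, lowest in PBS_sham 3. With that heart included its fold change was 1.14 on the log2 scale (SE 0.75, adjusted p = 0.393) with overlap. The part of atrial RNA in either value was not tested. Adult contraction and calcium genes had a median log2 fold change of 0.34 over 16 genes with all hearts and of -0.02 without PBS_sham 3. For 14 of the 16 the lowest library was PBS_sham 3. Without that heart 1 of the 16 lay higher without overlap and 1 lower, where 14.4% and 11.8% of all genes did. With all hearts Mybpc3, the thick-filament regulator cardiac myosin-binding protein C, was the only 1 without overlap, where 8.11% of all genes lay higher and 6.57% lower. It was at 4197, 3242 and 1553 CPM in PBS_sham 1 to 3 and 4872, 4522 and 5474 CPM in PBS_TAC 1 to 3. Mybpc3 gave a log2 fold change of 0.73, SE 0.29, adjusted p = 0.223, and 0.42 without PBS_sham 3. Myh6 and Atp2a2, the fast myosin and the calcium pump that failing hearts lose, were called in neither comparison (log2 fold changes 0.33 and 0.33, and 0.01 and -0.15 without PBS_sham 3). Nrap, which anchors new myofibrils at the cell end, belongs to none of the lists and was named with its values known. It rose without PBS_sham 3, where 0.233% of all genes were called higher. Its level was 716, 609 and 145 CPM in PBS_sham 1 to 3 and 1396, 1141 and 1352 CPM in PBS_TAC 1 to 3. Nrap gave a log2 fold change without PBS_sham 3 of 0.97, SE 0.18, adjusted p = 0.0414, and 1.40 with all hearts.

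**Figure D3:**
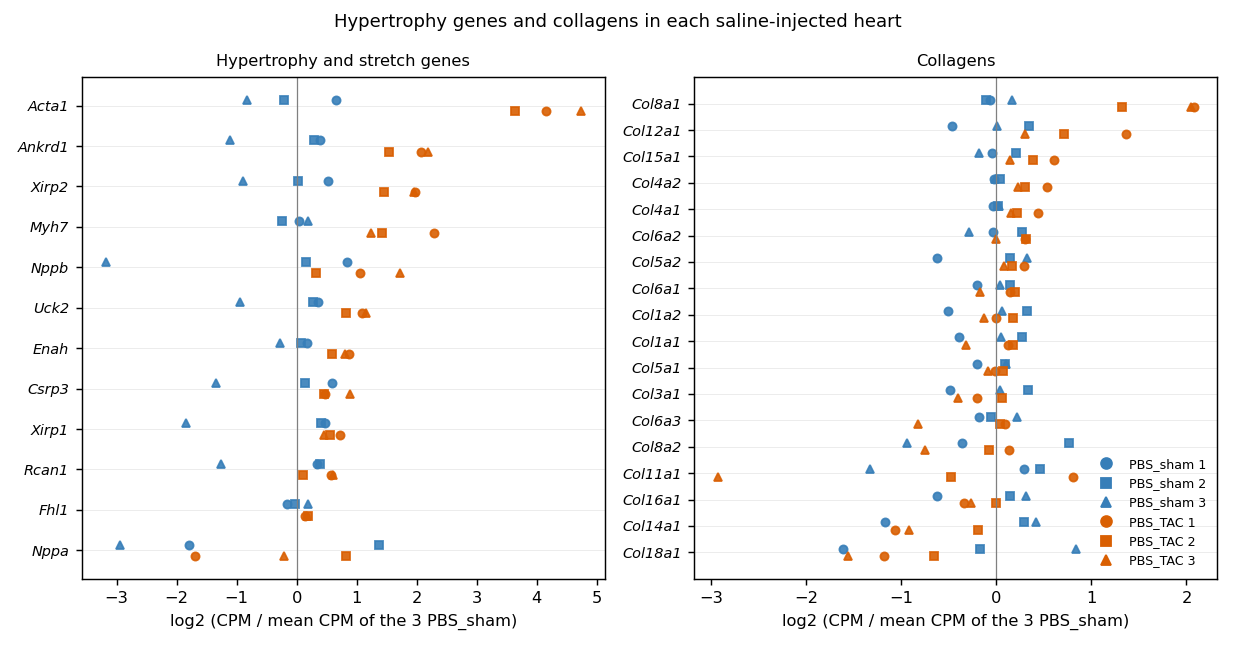
Log2 ratio of each heart's CPM to the mean of the 3 PBS_sham hearts for 12 hypertrophy genes and 18 collagens (blue, PBS_sham; orange, PBS_TAC; circle, square and triangle, libraries 1, 2 and 3). TAC hearts lie right of all sham hearts for 6 hypertrophy genes and, among the collagens, for Col8a1, Col4a2 and Col4a1.

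Among matrix genes Ccn5 and, without PBS_sham 3, Col8a1 rose, while Spon2 fell. The 18 collagens had a median log2 fold change of 0.01 and 0 calls with all hearts; without PBS_sham 3 the median was 0.05 and Col8a1 was called, where 0.233% of all genes were called higher. Col8a1, a short-chain collagen of vessel walls and remodelling tissue, was at 17.96, 17.4 and 21.01 CPM in PBS_sham 1 to 3 and 79.2, 46.8 and 77.5 CPM in PBS_TAC 1 to 3. The TAC hearts lay 3.61-fold above the sham hearts in the fit (log2 fold change 1.85, SE 0.34, adjusted p = 0.0698; log2 fold change without PBS_sham 3 of 1.94, SE 0.39, adjusted p = 0.0479). The fibrillar collagens of scar overlapped between groups: Col1a1 was at 129, 204 and 176 CPM in PBS_sham 1 to 3 and 184, 192 and 136 CPM in PBS_TAC 1 to 3, and its log2 fold change was 0.01 (SE 0.25, adjusted p = 0.988). For Col3a1 it was -0.17 (SE 0.23, adjusted p = 0.677). The type IV basement membrane chains Col4a1 and Col4a2, neighbours read in opposite directions, lay 1.21-fold and 1.28-fold higher without overlap and without passing the test.

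Among 27 matricellular proteins, Ccn5 rose and Spon2 fell, where 0.0127% and 0.0191% of all genes did. Cilp, Thbs4 and Fbln2 also lay higher without overlap, as 8.11% of all genes did. Without PBS_sham 3, 9 of the 27 lay higher without overlap and 3 lower, where 14.4% and 11.8% of all genes did. Cilp, cartilage intermediate layer protein, which binds TGF-beta, was at 16.8, 24.8 and 14.2 CPM in PBS_sham 1 to 3 and 123, 62.9 and 88.1 CPM in PBS_TAC 1 to 3. Cilp gave a log2 fold change of 2.30, SE 0.59, adjusted p = 0.142, and 2.14 without PBS_sham 3. Thbs4, a thrombospondin induced in stressed muscle, was at 7.94, 17.5 and 4.62 CPM in PBS_sham 1 to 3 and 47.6, 20.6 and 37.3 CPM in PBS_TAC 1 to 3. Thbs4 gave a log2 fold change of 1.82, SE 0.68, adjusted p = 0.203, and 1.46 without PBS_sham 3. Periostin (Postn), the marker of activated fibroblasts, overlapped between groups at 52.3, 70.4 and 134 CPM in PBS_sham 1 to 3 and 155, 111 and 189 CPM in PBS_TAC 1 to 3. Postn gave a log2 fold change of 0.82, SE 0.53, adjusted p = 0.39, and 1.30 without PBS_sham 3. Its overlap came from PBS_sham 3, the other sham hearts lying below all TAC hearts, and without that heart the adjusted p was 0.314. In elastin (Eln), lower without overlap at 63.8, 87.3 and 238 CPM in PBS_sham 1 to 3 and 45.4, 58.7 and 37.4 CPM in PBS_TAC 1 to 3, the highest value was in the smooth-muscle-rich PBS_sham 3; the log2 fold change was -1.46 with that heart and -0.68 (SE 0.28, adjusted p = 0.284) without it. Of 19 matrix processing enzymes tested, 1 fell without PBS_sham 3, where 0.277% of all genes were called lower. It was Serpinh1, the collagen chaperone HSP47, at 381, 496 and 272 CPM in PBS_sham 1 to 3 and 236, 202 and 240.2 CPM in PBS_TAC 1 to 3. Serpinh1 gave a log2 fold change without PBS_sham 3 of -0.95, SE 0.14, adjusted p = 0.0112, and -0.76 with all hearts. Aspn (asporin), of the small leucine-rich proteoglycans, lay higher without overlap (log2 fold change 0.73, SE 0.21, adjusted p = 0.155, and 0.83 without PBS_sham 3).

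Signals to fibroblasts, vessels and leukocytes showed few calls. Of 16 TGF-beta ligands, receptors and binding proteins, 0 were called. Tgfb2, Ltbp2 and Gdf15 lay higher without overlap, and Ltbp1 lower, where 8.11% and 6.57% of all genes did. Tgfb2, a TGF-beta ligand, was at 14.2, 15.3 and 16.5 CPM in PBS_sham 1 to 3 and 29.2, 21.5 and 22.3 CPM in PBS_TAC 1 to 3. Tgfb2 gave a log2 fold change of 0.67, SE 0.30, adjusted p = 0.262, and 0.72 without PBS_sham 3. Ace, angiotensin-converting enzyme, was at 69.5, 78.5 and 70.2 CPM in PBS_sham 1 to 3 and 128, 113 and 131 CPM in PBS_TAC 1 to 3. Ace gave a log2 fold change of 0.77, SE 0.19, adjusted p = 0.142, and 0.74 without PBS_sham 3. Edn3, endothelin 3, was at 2.14, 1.05 and 0.319 CPM in PBS_sham 1 to 3 and 10.4, 6.74 and 11.5 CPM in PBS_TAC 1 to 3; the groups lay apart (log2 fold change 3.07, SE 0.78, adjusted p = 0.142, and 2.58 without PBS_sham 3; 3.87 without PBS_sham 1). Of 21 chemokines and chemokine receptors tested, Ackr4 rose, where 0.0127% of all genes were called higher. With all hearts 3 of the 21 lay higher without overlap and 3 lower, where 8.11% and 6.57% of all genes did. Without PBS_sham 3 Cx3cl1, the membrane-bound chemokine fractalkine, rose as well, where 0.233% of all genes were called higher. Cx3cl1 was at 11.4, 9.96 and 13.3 CPM in PBS_sham 1 to 3 and 19.5, 15.7 and 14.8 CPM in PBS_TAC 1 to 3. Cx3cl1 gave a log2 fold change without PBS_sham 3 of 0.64, SE 0.12, adjusted p = 0.0414, and 0.53 with all hearts. Of 11 inflammation genes tested, 0 were called in either comparison and their median was -0.74 (-0.47 without PBS_sham 3). Nfkbia, the inhibitor of NF-kappa-B that NF-kappa-B itself induces, lay lower without overlap at 56.8, 83.01 and 125 CPM in PBS_sham 1 to 3 and 40.3, 36.7 and 55.1 CPM in PBS_TAC 1 to 3. Nfkbia gave a log2 fold change of -1.004, SE 0.25, adjusted p = 0.14, and -0.67 without PBS_sham 3. Summed macrophage and leukocyte markers were at 208 to 319 CPM in the sham hearts and at 252 to 306 CPM after TAC.

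Arntl fell, and members of both clock arms lay apart between the groups. Of 5 activators, Arntl fell, where 0.0191% of all genes were called lower. Npas2 and Clock lay lower without overlap, where 6.57% of all genes did, and 2 overlapped. Clock transcripts cycle over the day, and the hour at which each heart was taken is not given in the sources used here. Npas2, the partner that can stand in for Clock, was at 4.11, 5.70004 and 5.302 CPM in PBS_sham 1 to 3 and 1.81, 1.96 and 1.69 CPM in PBS_TAC 1 to 3. Npas2 gave a log2 fold change of -1.47, SE 0.31, adjusted p = 0.108, and -1.43 without PBS_sham 3. Clock was at 29.5, 36.9 and 34.4 CPM in PBS_sham 1 to 3 and 23.7, 26.9 and 21.7 CPM in PBS_TAC 1 to 3. Clock gave a log2 fold change of -0.48, SE 0.12, adjusted p = 0.14, and -0.46 without PBS_sham 3. Of 11 repressors, 5 lay higher without overlap (Ciart, Bhlhe41, Cry2, Cry1 and Bhlhe40), 1 lower (Nfil3) and 5 overlapped, where 8.11% of all genes lay higher and 6.57% lower. Ciart, or CHRONO, which binds BMAL1 and blocks its activity, was at 16.3, 10.7 and 18.3 CPM in PBS_sham 1 to 3 and 33.03, 33.3 and 35.5 CPM in PBS_TAC 1 to 3; the TAC hearts lay close together and above all sham hearts (log2 fold change 1.17, SE 0.25, adjusted p = 0.108). Without PBS_sham 3 it rose (log2 fold change without PBS_sham 3 of 1.33, SE 0.26, adjusted p = 0.0455). Bhlhe41 (DEC2), an E-box-binding repressor, was at 30.4, 23.4 and 18.9 CPM in PBS_sham 1 to 3 and 42.2, 46.4 and 42.1 CPM in PBS_TAC 1 to 3 (log2 fold change 0.85, SE 0.15, adjusted p = 0.0593), and it rose without PBS_sham 3 (log2 fold change without PBS_sham 3 of 0.70, SE 0.12, adjusted p = 0.0192); its exons overlap Gm43909 on the other strand. The output factor Dbp, a PAR-bZIP activator of D-box genes, was at 78.7, 58.3 and 80.8 CPM in PBS_sham 1 to 3 and 141, 165 and 141 CPM in PBS_TAC 1 to 3. Dbp gave a log2 fold change of 1.03, SE 0.22, adjusted p = 0.108, and 1.12 without PBS_sham 3. With all 6 hearts Per1, Per2, Per3, Nr1d1, Nr1d2 and Tef overlapped between the groups. Without PBS_sham 3, 7 of the 11 repressors and all 3 output factors lay higher without overlap, where 14.4% of all genes did. In that comparison 1 repressor and 3 of the 5 activators lay lower without overlap, where 11.8% of all genes did.

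To show the sequence these clock factors read, the promoter tables of RefSeq (GRCm38.p6) were matched for 16 of the 19 clock genes and 3 of the 5 called genes. Counts by gene use the first promoter listed for each, over 250 bases upstream of the start. The E-box CACGTG, which is its own complement, occurred in 5 of the 16 clock genes (Per1, Cry1, Bhlhe41, Ciart and Tef), where 6.02% of 32817 promoters held it. AGGTCA, the core site of ROR and REV-ERB factors, occurred in 3 of 16 on either strand (14% of all promoters), and the D-box TTANGTAA in 1 of 16 (2.06%). A later promoter listed for Clock also held AGGTCA, and the shares of all promoters count every distinct promoter of a gene. The stretches upstream of the annotated gene are printed 5′ to 3′ on the gene's strand for the 3 clock genes that were called in either comparison, with each E-box in capitals. Ciart (chr3:95882252-95882478, minus strand) holds 3, starting 116, 58 and 44 bases before the RefSeq start; Bhlhe41 (chr6:145865559-145865670, minus strand) holds 1, starting 153 bases before it; Arntl (chr7:113207215-113207464, plus strand) holds none of the 3 motifs in this window.
Ciart: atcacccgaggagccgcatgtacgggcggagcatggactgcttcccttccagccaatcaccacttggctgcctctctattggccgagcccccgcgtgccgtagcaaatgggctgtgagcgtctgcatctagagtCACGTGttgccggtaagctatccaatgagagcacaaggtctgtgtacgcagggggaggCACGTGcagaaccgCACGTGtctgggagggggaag
Bhlhe41: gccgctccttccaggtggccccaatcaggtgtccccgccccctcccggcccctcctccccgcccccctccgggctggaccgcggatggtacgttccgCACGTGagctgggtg
Arntl: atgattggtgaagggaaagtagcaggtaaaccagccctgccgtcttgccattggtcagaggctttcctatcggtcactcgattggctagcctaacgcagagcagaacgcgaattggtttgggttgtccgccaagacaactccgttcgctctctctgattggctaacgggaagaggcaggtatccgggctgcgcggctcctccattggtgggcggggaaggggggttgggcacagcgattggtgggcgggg
A match describes the letters and is no evidence of binding.

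**Figure D4:**
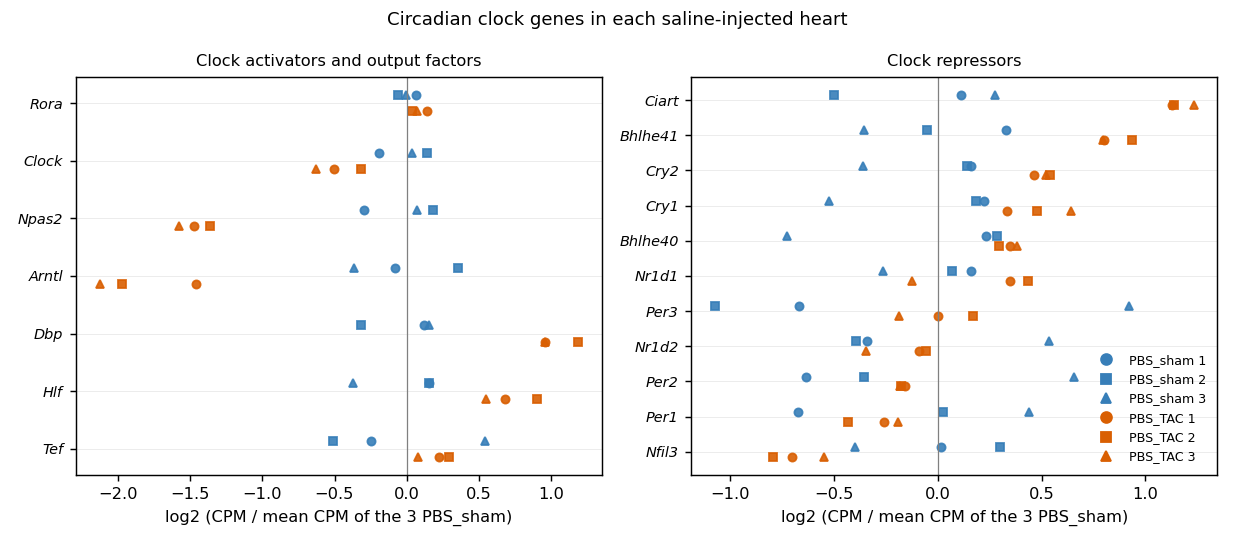
Log2 ratio of each heart's CPM to the mean of the 3 PBS_sham hearts for 7 clock activators and output factors and 11 repressors (blue, PBS_sham; orange, PBS_TAC; circle, square and triangle, libraries 1, 2 and 3). Arntl, Npas2, Clock and Nfil3 lie left of all sham hearts, and Ciart, Bhlhe41, Cry2, Cry1, Bhlhe40, Dbp and Hlf right of them.

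The Arntl difference was not shared by the hearts that received the vector. In AAV_sham it was at 9.07, 12.2, 9.99 and 7.44 CPM, and in AAV_TAC at 15.7, 19.7, 15.8 and 12.8 CPM, so it lay lower after TAC in saline hearts and higher after TAC in vector hearts. The difference of the TAC effects was -2.54 on the log2 scale (SE 0.32, adjusted p = 0.0299 by edgeR), the only 1 of 15745 genes called (0.00635%), and 1094 genes (6.95%; 2.41% higher and 4.54% lower) had an unadjusted p under 0.05. The call held in 4 of 14 fits that left out 1 library, and its adjusted p ran from 7.38e-09 to 0.188 over 22 alternatives. Spon2 gave -2.52 (SE 0.38, adjusted p = 0.0874). For Ccn5 and Ackr4 the difference was 0.77 (SE 0.33) and 0.85 (SE 0.34), each with an adjusted p of 0.688, and for Acta1 0.67 (SE 1.10, adjusted p = 0.825). Ciart and Dbp, at 1.77 and 1.61, had an adjusted p of 0.321. Against floxed controls, 0 of 16583 genes (0.0%) differed in their TAC effect, with 2009 (12.1%; 2.59% higher and 9.53% lower) at an unadjusted p under 0.05; DESeq2 called 136. Arntl there gave a difference of -0.99 (SE 0.71, adjusted p = 0.592).

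Chaperones of the endoplasmic reticulum, which fold and check secreted proteins, were lower after TAC once PBS_sham 3 was left out. Of 22 such genes, a list written after the values were seen, 12 fell, 0 rose and 10 did not pass, where 0.277% of all genes were called lower; with all 6 hearts 0 were called. None of the 12 was called when PBS_sham 2 was left out as well or in the PBS libraries alone, where 0 genes passed. The median log2 fold change was -0.52 without PBS_sham 3 and -0.34 with it. Sdf2l1, a partner of BiP, was at 14.1, 18.9 and 5.18 CPM in PBS_sham 1 to 3 and 4.44, 5.18 and 4.49 CPM in PBS_TAC 1 to 3. Sdf2l1 gave a log2 fold change without PBS_sham 3 of -1.81, SE 0.22, adjusted p = 0.00563, and -1.43 with all hearts. Manf, a stress-induced secreted chaperone cofactor, was at 71.2, 90.2 and 29.98 CPM in PBS_sham 1 to 3 and 27.7, 30.9 and 37.1 CPM in PBS_TAC 1 to 3. Manf gave a log2 fold change without PBS_sham 3 of -1.34, SE 0.15, adjusted p = 0.00434, and -0.999 with all hearts. Hspa5, the chaperone BiP itself, was at 867, 913 and 266 CPM in PBS_sham 1 to 3 and 499, 501 and 534 CPM in PBS_TAC 1 to 3. Hspa5 gave a log2 fold change without PBS_sham 3 of -0.80, SE 0.10, adjusted p = 0.00563, and -0.42 with all hearts. In each of the 3, PBS_sham 3 lay close to or below the TAC hearts while PBS_sham 1 and 2 lay above all of them. Xbp1, the transcription factor that induces such chaperones, was at 93.6, 123 and 62.2 CPM in PBS_sham 1 to 3 and 59.7, 61.2 and 60.5 CPM in PBS_TAC 1 to 3. Its groups lay apart; it fell without PBS_sham 3 and was not called with all 6 hearts (log2 fold change -0.62, SE 0.18, adjusted p = 0.167; log2 fold change without PBS_sham 3 of -0.84, SE 0.11, adjusted p = 0.00563). Hyou1, Creld2, Pdia4, Pdia6, Syvn1, Calr, Dnajc3 and Hsp90b1 also fell without PBS_sham 3, by 0.51 to 1.18 on the log2 scale. Fold changes of the 12 with all hearts were also negative, from -1.43 (Sdf2l1) to -0.27 (Hsp90b1).

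Of 27 heat-shock chaperones and co-chaperones of the cytosol, likewise listed after the values were seen, 3 fell without PBS_sham 3 (Dnaja1, Chordc1 and Ptges3) and 0 rose, where 0.277% of all genes were called lower. Without that heart 18 of the 27 lay lower without overlap and 2 higher, where 11.8% and 14.4% of all genes did; with all hearts it was 6 and 2, where 6.57% and 8.11% did. Dnaja1, an HSP40 co-chaperone whose exons overlap Smu1, was at 264, 369.9 and 224 CPM in PBS_sham 1 to 3 and 138, 98.4 and 155 CPM in PBS_TAC 1 to 3. Dnaja1 gave a log2 fold change without PBS_sham 3 of -1.28, SE 0.24, adjusted p = 0.0414, and -1.13 with all hearts. Chordc1, an HSP90 co-chaperone, was at 73.4, 94.9 and 76.7 CPM in PBS_sham 1 to 3 and 43.4, 36.4 and 41.9 CPM in PBS_TAC 1 to 3 (log2 fold change without PBS_sham 3 of -1.05, SE 0.17, adjusted p = 0.0192; with all hearts, log2 fold change -1.01, SE 0.17, adjusted p = 0.0546). The inducible HSP70 genes Hspa1a and Hspa1b, nearly identical copies whose reads cannot be told apart with certainty, lay lower without overlap; Hspa1b was at 117, 342 and 74.2 CPM in PBS_sham 1 to 3 and 34.2, 9.499 and 37.1 CPM in PBS_TAC 1 to 3. Hspa1b gave a log2 fold change of -2.72, SE 0.77, adjusted p = 0.153, and -3.09 without PBS_sham 3. Leaving out PBS_sham 2, its highest library, gave -1.82. By contrast the small heat-shock proteins of muscle Hspb6 and Hspb7 lay higher without overlap, Hspb6 at 804, 568 and 162 CPM in PBS_sham 1 to 3 and 1219, 1070.3 and 1363 CPM in PBS_TAC 1 to 3. Hspb6 gave a log2 fold change of 1.25, SE 0.41, adjusted p = 0.188, and 0.83 without PBS_sham 3.

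**Figure D5:**
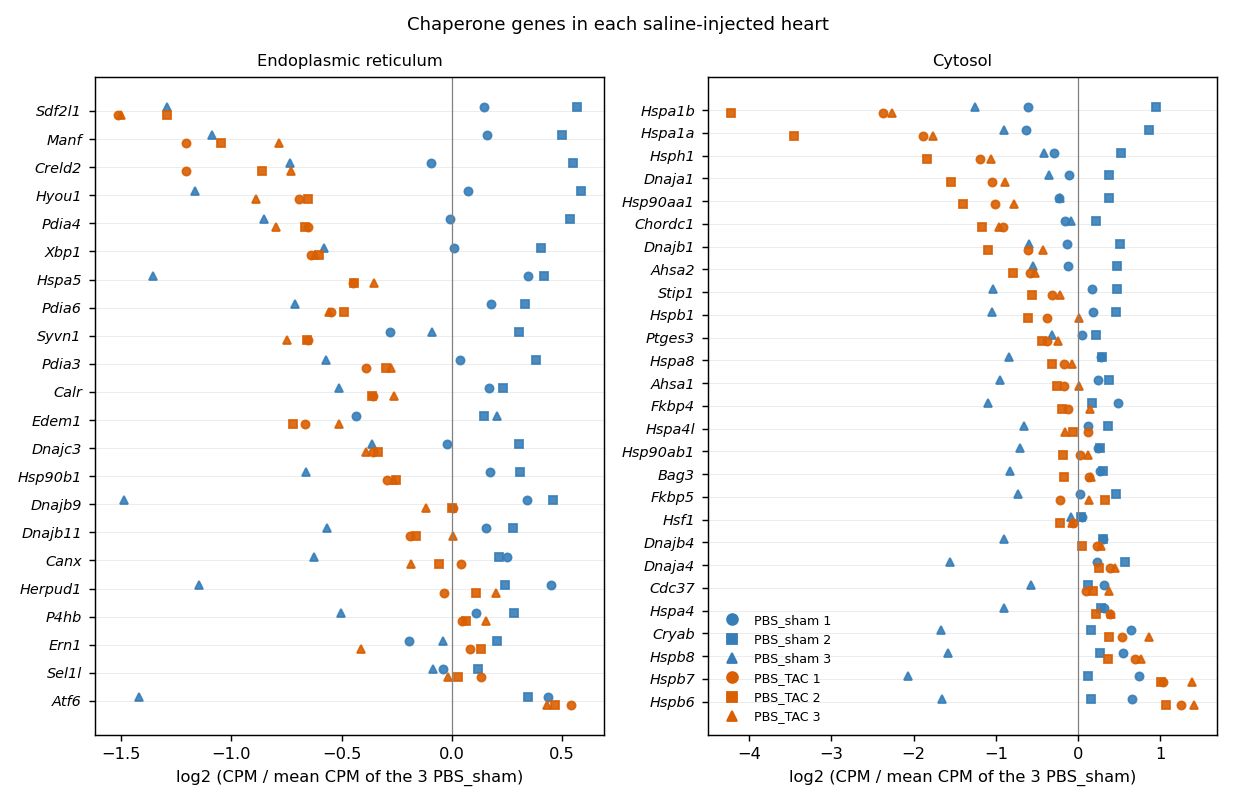
Log2 ratio of each heart's CPM to the mean of the 3 PBS_sham hearts for 22 chaperone genes of the endoplasmic reticulum and 27 of the cytosol, ordered by fold change without PBS_sham 3 (blue, PBS_sham; orange, PBS_TAC; circle, square and triangle, libraries 1, 2 and 3). For Hspa5, Pdia6, Calr and Hsp90b1 the TAC hearts lie between PBS_sham 3, at the left, and the other 2 sham hearts, at the right.

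Fuel metabolism showed no call. Cpt1a was at 37.4, 50.7 and 67.96 CPM in PBS_sham 1 to 3 and 57.1, 61.5 and 40.2 CPM in PBS_TAC 1 to 3; the groups overlapped and the log2 fold change was 0.02 (SE 0.23, adjusted p = 0.957), or 0.26 (SE 0.21, adjusted p = 0.627) without PBS_sham 3. The 22 fatty acid oxidation genes had a median of 0.31 with all hearts and -0.09 without PBS_sham 3, and for 18 of the 22 the lowest library was PBS_sham 3. For 23 respiratory chain genes the medians were 0.33 and -0.06, and for 23 genes of glucose use 0.32 and -0.03. With all hearts Pdk1, a kinase that holds back pyruvate dehydrogenase, was the 1 glucose gene without overlap, where 8.11% of all genes lay higher and 6.57% lower. None of the fatty acid oxidation or respiratory chain genes lay apart with all hearts. Without PBS_sham 3, 1 fatty acid oxidation gene lay lower and 2 glucose genes higher without overlap, where 11.8% and 14.4% of all genes did. The median of the regulators of the PPAR and PGC-1 kind was 0.04 over 15 genes. In these lists 0 genes were called in either comparison.

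Aqp8, a water channel, was at 3.67, 3.15 and 1.91 CPM in PBS_sham 1 to 3 and 13.97, 9.84 and 17.1 CPM in PBS_TAC 1 to 3 (log2 fold change without PBS_sham 3 of 2.001, SE 0.39, adjusted p = 0.0429; with all hearts, log2 fold change 2.24, SE 0.36, adjusted p = 0.0546). Cdh4 (R-cadherin), the long non-coding RNA Gm13943, Nmrk2 (a muscle kinase that makes NAD precursors), Hhipl1 and the transcription factor Lhx6 rose without PBS_sham 3, by 1.17 to 1.93 on the log2 scale. For Nmrk2, Hhipl1 and Lhx6 the groups overlapped once PBS_sham 3 was included. Nle1, a ribosome assembly factor, and the pseudogene Gm15542 fell without PBS_sham 3; Nle1 was at 28.2, 48.8 and 26.6 CPM in PBS_sham 1 to 3 and 11.9, 9.096 and 10.6 CPM in PBS_TAC 1 to 3. Nle1 gave a log2 fold change without PBS_sham 3 of -1.87, SE 0.30, adjusted p = 0.0192, and -1.71 with all hearts. With all 6 hearts, Bdh1, the mitochondrial enzyme that oxidises the ketone body beta-hydroxybutyrate, was at 96.6, 51.7 and 13.5 CPM in PBS_sham 1 to 3 and 227, 157 and 270.4 CPM in PBS_TAC 1 to 3. Bdh1 gave a log2 fold change of 2.02, SE 0.51, adjusted p = 0.142, and 1.56 without PBS_sham 3. Leaving out PBS_sham 1 gave 2.75 for it. Cnksr1 and Nlrc3 also lay higher without overlap, by 1.86 and 2.06 on the log2 scale, with adjusted p of 0.14 and 0.156.

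Apart from Spon2, the 10 largest falls with all 6 hearts were not called, and in 5 of the 10 PBS_sham 3 was the highest library. Npnt (nephronectin, a basement membrane protein) was at 1.697, 7.64 and 37.99 CPM in PBS_sham 1 to 3 and 1.403, 1.44 and 0.212 CPM in PBS_TAC 1 to 3. Npnt gave a log2 fold change of -3.97, SE 0.97, adjusted p = 0.14, and -2.21 without PBS_sham 3. Acta2 and Lmod1, both of smooth muscle, were at 957 and 73.8 CPM in PBS_sham 3, and their log2 fold changes went from -2.23 and -2.52 to -0.63 and -0.72 without it. The unclassified transcripts Gm43359 and Gm37720 went from -2.88 and -2.73 to -0.60 and -1.09. Retnla, a product of alternatively activated macrophages and fat tissue, was at 4.82, 26.3 and 7.21 CPM in PBS_sham 1 to 3 and 1.696, 3.68 and 1.37 CPM in PBS_TAC 1 to 3 and was highest in PBS_sham 2, where fat markers were high too. Its log2 fold change was -2.50 with all hearts and -1.42 without PBS_sham 2; the part of fat in it was not tested. Stk26, a kinase of the GCKIII family, was at 1.86, 10.2 and 6.697 CPM in PBS_sham 1 to 3 and 0.994, 1.78 and 0.793 CPM in PBS_TAC 1 to 3. Stk26 gave a log2 fold change of -2.39, SE 0.57, adjusted p = 0.132, and -2.34 without PBS_sham 3.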

How the data were processed

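Poly(A) RNA libraries were made with the NEBNext Ultra II Directional kit from 200 ng of RNA with an integrity number above 7, amplified for 12 PCR cycles and sequenced paired-end at 100 bp, per the labels' protocols. The authors deposited a table of raw read counts per gene; HISAT2 2.1.0, featureCounts, Subread 1.5.1 and build GRCm38 are named in the submitters' processing notes, and the strand setting and annotation release are not given in the sources used here. Of 55487 gene identifiers, 55141 matched a symbol of GENCODE M21, and those without one held at most 0.0479% of the counts of a PBS library.

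Counts were tested with edgeR 4.0.16 (R 4.3.3; quasi-likelihood F test) with TMM scaling, the filterByExpr filter and 1 mean per group over the 14 libraries of the AAV9 cohort (10 residual degrees of freedom). The difference from the vector hearts was an interaction in the same fit, and that from floxed controls a contrast in a fit of all 30 libraries. A gene was called at an adjusted p under 0.05. The members, gene lists and the comparison without PBS_sham 3 were chosen with earlier results of these data known, so lists are described by counts and medians, with no test. Text names every called gene with all 6 hearts, the 10 largest rises and falls among genes called without PBS_sham 3, and the 10 largest rises and falls with all 6 hearts at an unadjusted p under 0.01 (both sets of 10 limited to groups that do not overlap and reach 5 CPM in the higher mean), besides list members named for their role and Cpt1a. Nrap, Ncapg and Kntc1 were named outside this rule, with their values known. In simulated counts the main test recovered 50% of 2-fold and 88% of 4-fold changes over 15557 genes, and 6.16% of its calls were false; without PBS_sham 3 it recovered 32.3% and 78% over 15642 genes, with 9.09% false. For DESeq2 1.42.0 22% and 24.5% of calls were false. The simulated counts were drawn independently for each library around a shared mean per gene, apart from the changes set. No simulated library stood apart as PBS_sham 3 did, and atrial RNA was not varied, so these rates may not hold for these hearts. No duplicate libraries were found: the chi-square per degree of freedom between libraries of a group ran from 17.4 to 262. Alternatives were DESeq2, limma voom 3.58.1 with sample weights, RLE scaling, other filters, a replicate block, covariates for atrial and smooth muscle RNA, other sets of libraries in the fit, and leaving out each library.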

Additional observations from a re-analysis of the deposited data

Results flagged for a closer look

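The TAC effect on Arntl differed between saline and vector hearts by -2.54 on the log2 scale (edgeR interaction, SE 0.32, adjusted p = 0.0299). Arntl lay lower after TAC in all 3 saline hearts than in every saline sham heart, and higher in all 4 vector TAC hearts than in every vector sham heart.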

How the results depend on the processing

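With 3 hearts a group, counts of calls depended on the setting. For the 6 hearts (5 called), no filter gave 112, a mean of at least 5 CPM 11, DESeq2 370, voom with sample weights 252, all 8 groups in the fit 16, the PBS libraries alone 0, the same without PBS_sham 3 0, the atrial covariate 0, the replicate block 2, leaving out both PBS_sham 3 and PBS_TAC 2 50, and leaving out 1 library 0 to 1796. RLE scaling gave 5 and the smooth muscle covariate 7. Without PBS_sham 3 (81 called), DESeq2 gave 329, voom 16, the atrial and the smooth muscle covariate 19 each, the replicate block 38, the PBS libraries alone 0, and leaving out a further library 0 to 385. For the difference from vector hearts (1 called), no filter gave 5, DESeq2 16, voom 13, the replicate block 2, either covariate 0, and leaving out 1 library 0 to 1. For the difference from floxed controls (0 called), a mean of at least 5 CPM gave 1, DESeq2 136, voom 3, the atrial covariate 1, the smooth muscle covariate 2, and leaving out 1 library 0 to 240, with 90 without FF_TAC 1, 113 without FF_TAC 4 and 240 without PBS_sham 1; the replicate block gave 0. Same-numbered sham and TAC hearts deviated from their group means with correlations of 0.195, 0.293 and -0.111, and differently numbered ones with -0.395 to 0.291. With 3 hearts a group such values can neither show nor exclude pairs. The numbers were not taken as pairs in the main fit. The block left Spon2 and Arntl of the 5 called genes. Among the genes recomputed under each alternative (the called genes, the largest rises and falls, and Cpt1a), the direction reversed only for Cpt1a, which was -0.040 at a mean of at least 5 CPM, -0.014 with the PBS libraries alone, -0.013 with all 8 groups, and -0.15 to 0.26 on leaving out 1 library. Other genes were fitted with and without PBS_sham 3 only; the log2 fold change of Atp2a2 went from 0.33 to -0.15. Of the recomputed list medians, 9 moved by more than the spread between libraries and 167 did not. The 9 belonged to matrix enzymes, endothelin, chemokine and clock lists. That spread was the larger group SD of the list's mean level and included PBS_sham 3. Shifts on leaving out that heart can fall within it, as from 0.33 to -0.06 for the respiratory chain. The 167 are therefore no measure of stability. The causes were not tested, except that fewer libraries or genes enter some fits.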

Other observations

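Of 7 proliferation markers, 0 were called in either comparison and 3 lay higher without overlap with all 6 hearts (8.11% of all genes did): Top2a, a topoisomerase of dividing cells, at 1.86, 2.99 and 2.87 CPM in the sham hearts and 6.198, 4.203 and 4.81 CPM after TAC, Mki67 and Cdk1. Without PBS_sham 3, 6 of the 7 lay higher without overlap, where 14.4% of all genes did. Ncapg, a condensin subunit, and Kntc1, a kinetochore protein, were chosen after their values were seen. Both rose without PBS_sham 3, where 0.233% of all genes were called higher. The rise was 2.76 for Ncapg (edgeR, SE 0.52, adjusted p = 0.0391) and 3.29 for Kntc1 (SE 0.62, adjusted p = 0.0414) on the log2 scale. Both were under 0.2 CPM in PBS_sham 1 and 2, so these folds rest on a sham level near the floor.

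Further lists named here held 0 called genes in either comparison. Of 16 early response genes, Ier3 and Jun lay higher without overlap and Dusp1, a MAP kinase phosphatase, lower, where 8.11% and 6.57% of all genes did. Ier3 was at 31.2, 26.7 and 14.5 CPM in the sham hearts and 49.0, 44.7 and 71.5 CPM after TAC (log2 fold change 1.20, SE 0.26, edgeR adjusted p = 0.108). Of 16 integrated stress response genes tested, Mthfd1l, Chac1 and Shmt2 lay higher without overlap, and Phgdh, the first enzyme of serine synthesis, and Ddit3 lower. The same shares of all genes stand beside these counts, and the list median was -0.06. Medians were -0.33 for 11 Wnt antagonists and receptors and 0.16 for 17 genes of fatty acid uptake and storage. Lymphocyte markers were highest in PBS_sham 2, where Ighm was at 86.9 CPM against 6.13 to 11.8 CPM in the other hearts.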
